A study of Homo sapiens with 9 samples.

Results

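The Kruppel-like factors are zinc finger transcription factors, and 10 of them, KLF2, KLF3, KLF4, KLF5, KLF6, KLF7, KLF9, KLF10, KLF11 and KLF13, were followed here by their gene symbols among the 58735 genes counted in SKOV3, an ovarian cancer cell line. RNA was sequenced in 3 groups of 3 libraries, which were cells expressing WT CDK9, WT CDK9 cells given an ALK inhibitor for 24 h (Ai), and cells expressing Tyr19Phe CDK9 (Y19F), in which phenylalanine takes the place of a tyrosine. The study describes cells of this kind as stable lines carrying FLAG-tagged CDK9, so all groups carry an introduced gene. The study also describes lines in which WT or Tyr19Phe CDK9 was put back after depletion of CDK9. Whether the endogenous CDK9 was depleted in the sequenced cells is not given in the sources used here. The inhibitor used for these libraries, its dose, a vehicle, and the number of clones behind each line are not given in the sources used here. As WT and Tyr19Phe CDK9 were carried by separate lines, the mutation cannot be told apart from other differences between the lines. Nothing in the labels says that the replicates were separate cultures, so p-values measure the spread between these libraries, which may be technical.

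Kruppel-like factors bind CACCC and GC-rich boxes through fingers at their C-terminal end, and they differ in what the rest of the protein recruits. KLF2, KLF4, KLF5, KLF6 and KLF7 act largely as activators, KLF3 recruits the corepressor CtBP, and KLF9, KLF10, KLF11 and KLF13 recruit the SIN3 corepressor. Several are induced quickly by growth factors, stress or hormones. CDK9 is the kinase of P-TEFb, which releases paused RNA polymerase II into elongation, and the comparisons ask how RNA levels differ when ALK is inhibited or Tyr19 of CDK9 is replaced.

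The promoters of the 3 factors with the largest called changes in Tyr19Phe CDK9 cells, KLF2, KLF4 and KLF6, are shown beside that of KLF13, which fell there. Each is the 250 bases before the RefSeq start in GRCh38.p14, written 5′ to 3′. The windows are chr19:16324576-16324825 on the plus strand for KLF2, chr9:107489770-107490019 on the minus strand for KLF4, chr10:3785210-3785459 on the minus strand for KLF6 and chr15:31326585-31326834 on the plus strand for KLF13. Capitals mark GGGCGG or its reverse complement CCGCCC and, in KLF2, a match to the MEF2 site.
KLF2: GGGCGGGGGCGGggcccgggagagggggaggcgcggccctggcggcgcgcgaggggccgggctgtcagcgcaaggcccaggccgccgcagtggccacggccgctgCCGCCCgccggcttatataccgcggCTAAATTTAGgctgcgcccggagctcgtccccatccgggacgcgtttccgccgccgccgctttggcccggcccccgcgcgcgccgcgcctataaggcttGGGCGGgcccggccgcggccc
KLF4: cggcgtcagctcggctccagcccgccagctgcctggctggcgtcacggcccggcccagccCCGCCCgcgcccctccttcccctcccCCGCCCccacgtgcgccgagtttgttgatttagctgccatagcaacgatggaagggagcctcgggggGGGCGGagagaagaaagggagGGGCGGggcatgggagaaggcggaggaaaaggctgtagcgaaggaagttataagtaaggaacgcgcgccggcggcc
KLF6: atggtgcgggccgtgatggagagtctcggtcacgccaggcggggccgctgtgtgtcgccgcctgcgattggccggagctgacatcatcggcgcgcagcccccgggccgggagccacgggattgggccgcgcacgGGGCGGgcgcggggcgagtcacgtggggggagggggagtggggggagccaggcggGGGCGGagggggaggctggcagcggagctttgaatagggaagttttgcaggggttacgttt
KLF13: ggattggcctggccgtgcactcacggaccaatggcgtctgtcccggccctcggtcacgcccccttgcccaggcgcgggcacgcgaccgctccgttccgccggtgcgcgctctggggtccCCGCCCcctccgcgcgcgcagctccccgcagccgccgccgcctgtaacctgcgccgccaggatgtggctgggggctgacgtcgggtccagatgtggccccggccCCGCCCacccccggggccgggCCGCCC
KLF2 and KLF4 each held 4 GGGCGG matches, KLF13 held 3 and KLF6 held 2, and 42.6% of the 35116 RefSeq promoter windows of this length held at least 1. All motifs were searched on both strands. CACCC (reverse complement GGGTG) was found in the KLF13 window, where it shares a base with a CCGCCC match, and in none of the other 3. It was found in 54.7% of all windows. The MEF2 site of KLF2 begins 120 bases before the start, and 2.8% of windows held such a match. A CArG box, the site of SRF, was in none of these 4 windows and in 1.16% of all. It was found in 1 window of KLF7, 62 bases before the start. The RefSeq starts differ from the gene bounds in the deposited table, so the KLF4 window and part of the KLF6 and KLF2 windows lie inside the listed genes. Among the other members, promoter windows were on hand for KLF5, KLF7, KLF9 and KLF11, which brought the members with an entry to 8. Some of these windows also held GGGCGG, with 4 matches in 1 window of KLF7, 6 and 2 in those of KLF11 and 2 in 1 of KLF5. KLF5 and KLF11 were not called in Tyr19Phe CDK9 cells. The 4 printed windows had 69.2% to 80.0% GC, against a median of 58.0% over all windows.

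Total counts were 18939449 to 19731228 per library in WT CDK9 cells, 18169050 to 20974903 with the inhibitor and 26485891 to 29320184 in Tyr19Phe CDK9 cells. Counts were therefore compared as CPM, the counts scaled to a common depth with TMM factors, where 3 counts, the floor of detection, correspond to 0.102 to 0.165 CPM. The inhibitor replicate 2 and Tyr19Phe replicate 3 had the fewest genes with a count in their groups, 19944 and 20635, against 21241 to 22744 in the other libraries. Inhibitor replicate 2 also lay apart on the second principal component of log2 CPM (-51.6, against 10.4 and 9.01 for its group), and Tyr19Phe replicate 3 on the first (48.3, against 27.2 and 27.9). CDK9 was at 47.6 to 49.7 CPM in WT CDK9 cells, 43.8 to 47.3 CPM with the inhibitor and 52.4 to 59.5 CPM in Tyr19Phe CDK9 cells, and the counts separate neither the introduced gene from the endogenous one nor the mutant from the WT form. ALK had 0 to 5 counts per library. Of 10 markers of SKOV3 as an epithelial ovarian line, 8 had a mean of at least 1 CPM in each group, among them ERBB2, PAX8 and KRT8, while MUC16 and CDH1 stayed below 1 CPM. These 10 summed to 5320 to 5510 CPM in WT CDK9 libraries, 5850 to 5990 CPM with the inhibitor and 5170 to 5360 CPM in Tyr19Phe CDK9 libraries, most of it ERBB2, KRT7 and KRT8. Single markers moved apart in Tyr19Phe CDK9 cells, where ERBB2 (-0.29, adjusted p = 5.40e-08), EPCAM (-0.82 on the log2 scale, adjusted p = 1.75e-05) and KRT19 (-1.24, adjusted p = 3.86e-17) fell and KRT8 (0.38, adjusted p = 5.11e-10) and KRT18 (0.39, adjusted p = 1.01e-06) rose. They also did so with the inhibitor, where ERBB2 (0.54, adjusted p = 2.96e-13) and KRT19 (0.21, adjusted p = 0.0167) rose and KRT7 (-0.35, adjusted p = 1.15e-08) fell. Of 11 markers of blood, endothelium, fibroblasts, liver and muscle only the collagen gene COL1A1 reached a group mean of 1 CPM, and the list, almost all of it COL1A1, summed to 104 to 110, 116 to 151 and 31.8 to 46.5 CPM in the groups. The endothelial marker CDH5, which was not tested, had 0, 0 and 0 counts in WT CDK9 libraries and 14, 35 and 17 in Tyr19Phe CDK9 libraries. The part of these marker levels in the results was not tested.

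All 10 factors had counts in every library and entered the test, which was edgeR's quasi-likelihood test across 16350 genes with Benjamini-Hochberg adjusted p-values and a threshold of 0.05. In RNA of whole cultures, fewer cells that express a factor and less RNA per cell cannot be told apart. In Tyr19Phe CDK9 cells, KLF4, KLF2, KLF6 and KLF7 were higher than in WT CDK9 cells and KLF13 was lower. These are 5 of 10 members, where 18.0% of all tested genes were called in that comparison, 7.61% higher and 10.4% lower. With the ALK inhibitor only KLF2 was called, higher, 1 of 10 members where 4.55% of all genes were called and 1.82% were called higher. The median log2 fold change of the 10 members was 0.065 under the inhibitor and -0.0030 in Tyr19Phe CDK9 cells, against -0.0010 and 0.0035 over all tested genes. Both comparisons share the WT CDK9 libraries, and their difference was tested by the direct comparison of Tyr19Phe with inhibitor-treated cells. When both libraries that lay apart were left out, KLF4 (1.11, adjusted p = 1.57e-05), KLF6 (0.43, adjusted p = 1.91e-07), KLF2 (0.70, adjusted p = 0.00325) and KLF13 (-0.20, adjusted p = 0.0444) were still called between Tyr19Phe and WT CDK9 cells. KLF7 there (0.14, adjusted p = 0.122) and KLF2 under the inhibitor (0.44, adjusted p = 0.204) were not.

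**Figure D1:**
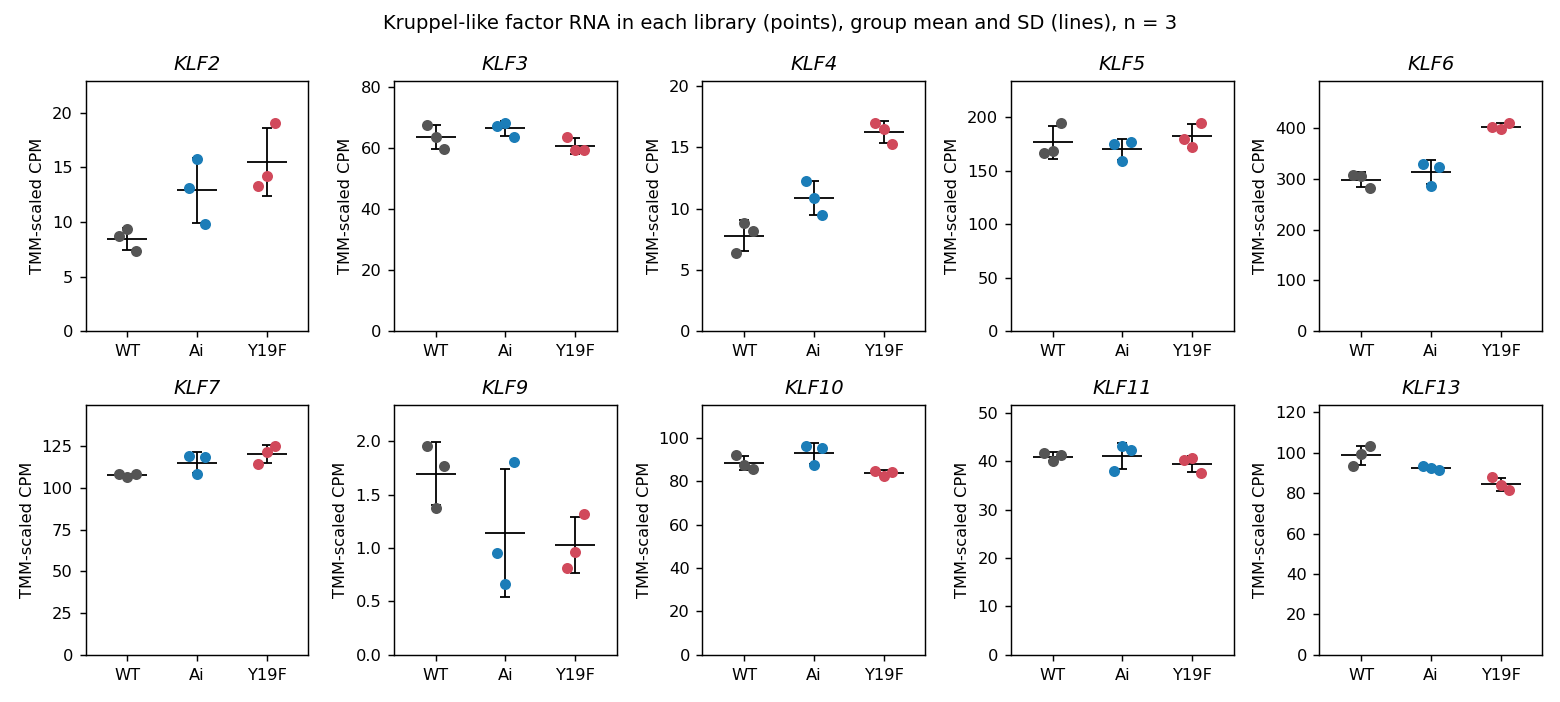
TMM-scaled CPM (y axis, from 0, a separate scale for each gene) of the 10 factors in the 3 libraries of each group (x axis: WT, Ai for the ALK inhibitor, Y19F), with the mean and SD as lines. The Y19F points of KLF4 and KLF6 lie above all points of both other groups. The Y19F points of KLF13 and KLF10 lie below those of both other groups, although KLF10 was not called against either.

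KLF4, a regulator of epithelial differentiation and a factor used to reprogram cells to pluripotency, showed the largest change among the members called. The gene (ENSG00000136826) lies on chromosome 9 from 107484852 to 107490482 on the minus strand. Its levels in WT CDK9 replicates 1, 2 and 3 were 6.41, 8.81 and 8.18 CPM, from 125, 167 and 153 counts. With the inhibitor they were 12.3, 10.9 and 9.51 CPM, and with Tyr19Phe CDK9 17.0, 16.5 and 15.2 CPM. The 3 groups did not overlap, with WT CDK9 lowest and Tyr19Phe CDK9 highest. Against WT CDK9 cells, the log2 fold change in Tyr19Phe CDK9 cells was 1.06 (standard error, SE, 0.15, adjusted p = 3.39e-06 by edgeR), a 2.08-fold rise with a 95% interval of 1.68 to 2.58. With the inhibitor it was 0.48 (SE 0.16, adjusted p = 0.0782), which missed the threshold, although the interval of 1.12- to 1.74-fold lay above no change before adjustment. In the direct comparison, Tyr19Phe CDK9 cells exceeded inhibitor-treated cells by 0.58 on the log2 scale (SE 0.15, adjusted p = 0.00445).

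KLF2, known for keeping endothelial cells and T cells quiescent, is the gene whose promoter holds the MEF2 match shown above. It is ENSG00000127528, on chromosome 19 from 16324817 to 16327874 on the plus strand. WT CDK9 libraries held 8.72, 9.34 and 7.38 CPM, inhibitor libraries 13.1, 15.8 and 9.82 CPM, and Tyr19Phe CDK9 libraries 13.3, 14.2 and 19.1 CPM. Every treated and every mutant library was above every WT CDK9 library, while the inhibitor and Tyr19Phe ranges overlapped. Between Tyr19Phe and WT CDK9 cells the log2 difference was 0.87 (SE 0.17, adjusted p = 2.55e-04), or 1.83-fold with a 95% interval of 1.44 to 2.32. With the inhibitor it was 0.60 (SE 0.17, adjusted p = 0.0357), or 1.52-fold with an interval of 1.19 to 1.94. The direct difference of 0.27 was not called (SE 0.16, adjusted p = 0.272). Its interval, from 0.957- to 1.52-fold, leaves room for equal levels and for a higher one in Tyr19Phe CDK9 cells.

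The highest KLF2 level of the inhibitor group was in replicate 2 and the highest of the Tyr19Phe group in replicate 3, the libraries with the fewest detected genes of their groups. The call with the inhibitor depended on single libraries. It was lost without WT replicate 1 (adjusted p = 0.0970), WT replicate 3 (0.159), inhibitor replicate 1 (0.0985) or inhibitor replicate 2 (0.254), where the log2 fold change was 0.44 to 0.63. The Tyr19Phe call held in all 9 fits that left out 1 library, with an adjusted p of at most 0.00584.

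KLF6, a widely expressed activator induced by injury and studied as a tumor suppressor, had the smallest adjusted p of the members. It is ENSG00000067082, on chromosome 10 from 3775996 to 3785281 on the minus strand. Its levels were 308.7, 304.8 and 282.6 CPM in WT CDK9 libraries and 329.1, 286.6 and 324.1 CPM with the inhibitor, ranges that overlapped. In Tyr19Phe CDK9 libraries they were 401.6, 397.4 and 410.7 CPM, above all others. The log2 fold change against WT CDK9 cells was 0.43 (SE 0.046, adjusted p = 1.75e-08), a 1.35-fold rise with an interval of 1.26 to 1.44. Against inhibitor-treated cells it was 0.36 (SE 0.046, adjusted p = 3.54e-07). The inhibitor gave 0.069 (SE 0.047, adjusted p = 0.555), and the interval of 0.982- to 1.12-fold holds no change as large as that in Tyr19Phe CDK9 cells.

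**Figure D2:**
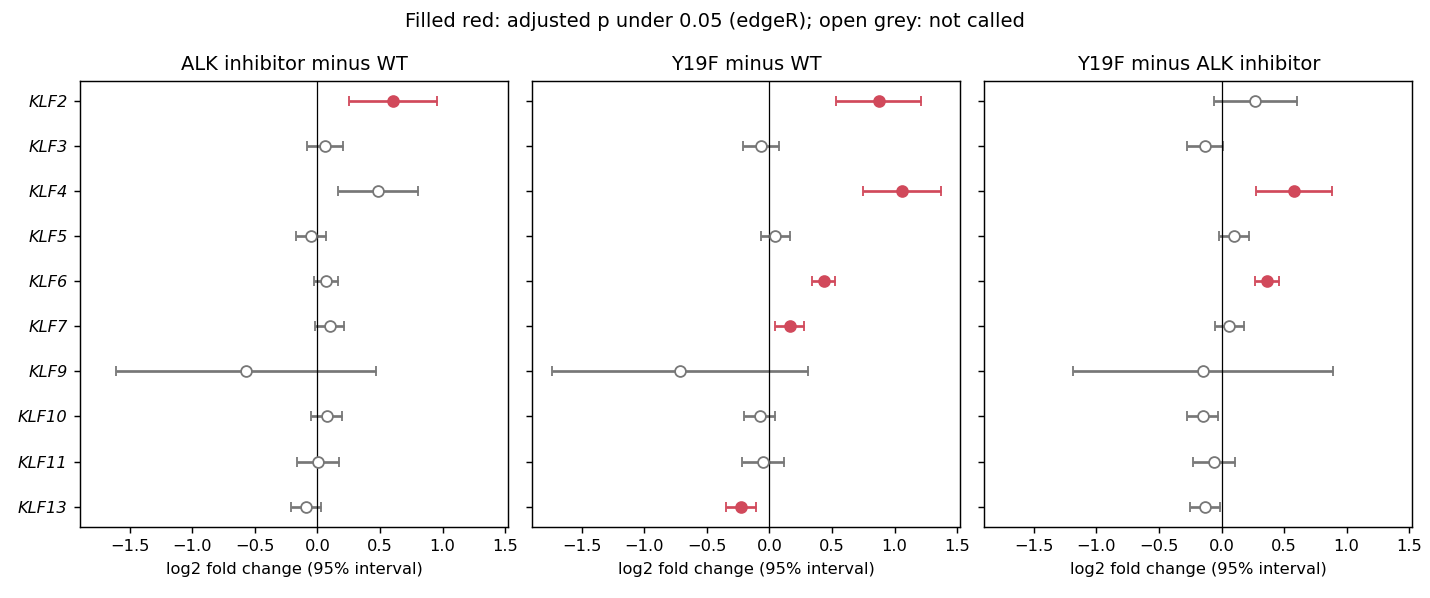
Log2 fold change (x axis) with its 95% interval for each of the 10 factors (y axis) in the 3 comparisons, inhibitor minus WT, Y19F minus WT and Y19F minus inhibitor. KLF2 is called on the left, KLF2, KLF4, KLF6, KLF7 and KLF13 in the middle, and KLF4 and KLF6 on the right, while KLF9 has the widest intervals.

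The remaining activators moved little. KLF7, which supports outgrowth of neurons, had 108.1, 106.6 and 108.0 CPM in WT CDK9 libraries, 118.8, 108.0 and 118.7 CPM with the inhibitor and 114.4, 121.5 and 124.8 CPM in Tyr19Phe CDK9 libraries. The Tyr19Phe libraries lay above the WT CDK9 libraries, and the inhibitor libraries overlapped both groups. Its log2 fold change in Tyr19Phe CDK9 cells was 0.16 (SE 0.056, adjusted p = 0.0422), and the call was lost in 5 of 9 fits that left out 1 library. These were without WT replicate 1, 2 or 3 (adjusted p = 0.0909, 0.0892 and 0.0810) and without Tyr19Phe replicate 2 or 3 (0.0973 and 0.145). KLF5, which promotes growth of basal epithelial cells, ranged from 166.3 to 194.6 CPM in WT CDK9 cells, from 158.9 to 176.6 CPM with the inhibitor and from 172.2 to 195.0 CPM in Tyr19Phe CDK9 cells. The groups overlapped, and its intervals against WT CDK9 cells ran from 0.889- to 1.05-fold under the inhibitor and from 0.953- to 1.12-fold in Tyr19Phe CDK9 cells.

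Of the 5 members known mainly as repressors, 1 was called in Tyr19Phe CDK9 cells, a share close to the 18.0% of all tested genes. KLF13, a SIN3-binding factor that drives the chemokine CCL5 in T cells, is ENSG00000169926, on chromosome 15 from 31326855 to 31435665 on the plus strand. Its WT CDK9 libraries held 93.5, 99.3 and 103.1 CPM, the inhibitor libraries 93.4, 92.5 and 91.4 CPM and the Tyr19Phe libraries 87.7, 83.8 and 81.5 CPM. The groups stood apart in this order, WT CDK9 narrowly above the inhibitor. In Tyr19Phe CDK9 cells KLF13 was lower than in WT CDK9 cells by 0.23 on the log2 scale (SE 0.059, adjusted p = 0.00589). Without WT replicate 3 the adjusted p was 0.0575. The inhibitor value of -0.094 was not called (SE 0.060, adjusted p = 0.518), nor was the direct difference of -0.13 (SE 0.059, adjusted p = 0.119). CCL5 itself had 0 to 4 counts per library and was not tested.

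KLF10 and KLF11 were first found as genes induced by TGF-beta. KLF10 had 85.6 to 92.0 CPM in WT CDK9 cells, 87.4 to 96.0 CPM with the inhibitor and 82.4 to 84.7 CPM in Tyr19Phe CDK9 cells. The Tyr19Phe libraries lay below both other groups, but its log2 fold change of -0.077 against WT CDK9 cells was not called (adjusted p = 0.438). Its difference from inhibitor-treated cells was -0.15 (SE 0.060, adjusted p = 0.0764), and this was called only without inhibitor replicate 2 (adjusted p = 0.0416). KLF11 stayed between 37.5 and 43.1 CPM in all 9 libraries, with intervals of 0.891- to 1.13-fold under the inhibitor and 0.858- to 1.08-fold in Tyr19Phe CDK9 cells. KLF3, the CtBP-binding member, stayed between 59.2 and 68.3 CPM, with intervals of 0.944- to 1.15-fold and 0.863- to 1.05-fold.

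KLF9, which is induced by glucocorticoids and thyroid hormone, had the fewest counts of the members. Its counts were 38, 26 and 33 in WT CDK9 libraries, 20, 12 and 35 with the inhibitor and 24, 27 and 35 in Tyr19Phe CDK9 libraries. Scaled to depth, the Tyr19Phe libraries at 0.813, 0.961 and 1.32 CPM lay below the WT CDK9 libraries at 1.95, 1.37 and 1.76 CPM. The log2 fold changes of -0.57 under the inhibitor and -0.72 in Tyr19Phe CDK9 cells had standard errors of 0.51 and 0.50 and were not called (adjusted p = 0.692 and 0.377). The Tyr19Phe interval ran from 0.299- to 1.24-fold, which holds no change as well as a fall or a small rise.

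Counted by libraries that do not overlap, 7 of 10 members separated Tyr19Phe from WT CDK9 cells, 4 higher and 3 lower, where 32.6% of all tested genes did, 15.4% higher and 17.2% lower. For the inhibitor 3 of 10 members separated, 2 higher and 1 lower, against 19.6% of all genes, 9.31% higher and 10.3% lower. For Tyr19Phe CDK9 against inhibitor-treated cells 5 of 10 separated, 2 higher and 3 lower, against 34.4%, 16.7% higher and 17.7% lower. In that direct comparison 2 of 10 members, KLF4 and KLF6, were called, both higher, where 20.7% of all tested genes were called, 9.57% higher and 11.1% lower.

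Levels of different genes were compared as CPM per kilobase of the gene length in the deposited table. In WT CDK9 cells, KLF6 stood at 48.7 ± 2.30 (SD, n = 3) and KLF5 at 45.4 ± 4.03, which did not differ beyond their spread. KLF10 followed at 22.1 ± 0.825, then KLF7 at 11.6 ± 0.0891, KLF13 at 10.5 ± 0.512, KLF3 at 10.1 ± 0.613 and KLF11 at 8.93 ± 0.193, with KLF13 and KLF3 overlapping. KLF2 at 4.20 ± 0.498, KLF4 at 2.13 ± 0.340 and KLF9 at 0.328 ± 0.0570 CPM per kilobase were lowest. KLF4 and KLF2, which had the largest fold changes among the members called, were thus among the least abundant, and both kept their rank in all 3 groups. KLF6 and KLF5 did not overlap with the inhibitor, at 51.0 ± 3.8 and 43.7 ± 2.5 CPM per kilobase. With Tyr19Phe CDK9, KLF6 reached 65.7 ± 1.10 CPM per kilobase and also lay above KLF5 at 46.9 ± 2.98. KLF2, at 7.70 ± 1.54, reached the range of KLF11 at 8.60 ± 0.372. Summed over the 10 members, the level was 163.9 ± 0.846 CPM per kilobase in WT CDK9 cells, 169.3 ± 6.49 with the inhibitor and 186.0 ± 5.14 in Tyr19Phe CDK9 cells. The share of KLF6 in this sum was 29.7%, 30.1% and 35.3%.

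**Figure D3:**
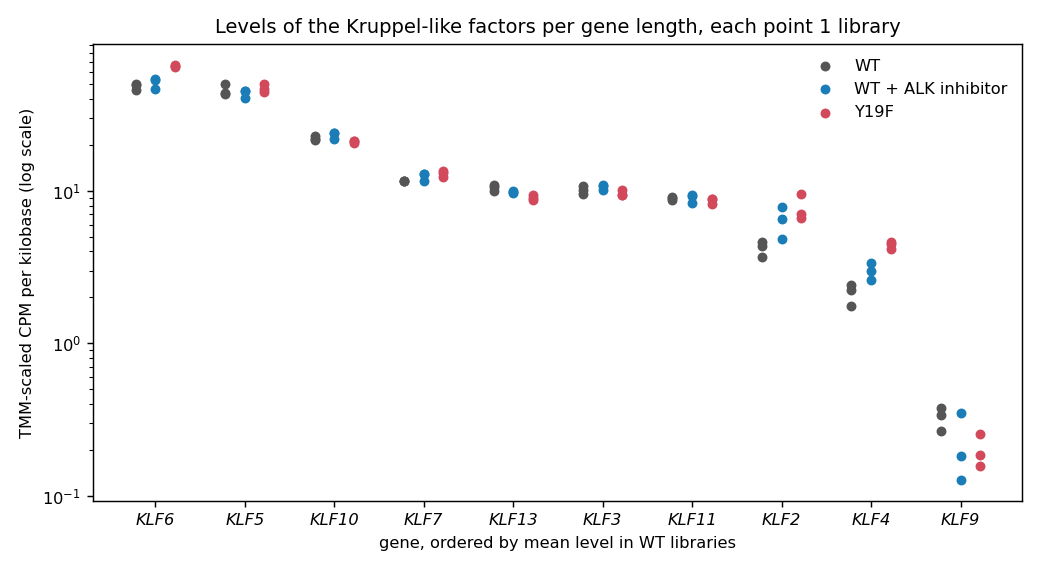
TMM-scaled CPM per kilobase (y axis, log scale) of each factor (x axis, ordered by the WT mean), with 1 point per library and a color per group. KLF6 and KLF5 lead in every group, and KLF2 in Y19F libraries reaches the level of KLF11.

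Genes around some members moved with them. Within 5 Mb of KLF6, the 31 other tested genes had a median of 0.26 on the log2 scale between Tyr19Phe and WT CDK9 cells, with 14 called higher and 2 lower, and KLF6 stood 0.17 (log2) above that median. Around KLF13 the median of 49 genes was -0.31, with 12 called lower and 0 higher, and KLF13 at -0.23 was less low than its surroundings. Around KLF3 the median of 31 genes was -0.31, with 18 called lower and 0 higher, while KLF3 itself was at -0.070. KLF2 and KLF4 stood far from their surroundings. Around KLF2 the median of 247 genes was 0.084, with 28 called higher and 14 lower. Around KLF4 the median of 33 genes was -0.061, with 2 called higher and 8 lower. KLF7 had a median of -0.014 over 40 genes around it, with 5 called higher and 4 lower. Of all tested genes, 7.61% were called higher and 10.4% lower between Tyr19Phe and WT CDK9 cells. With the inhibitor the medians around the 10 members lay between -0.058 and 0.049. The part of these regional shifts in the values of KLF6, KLF13 and KLF3 was not tested.

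**Figure D4:**
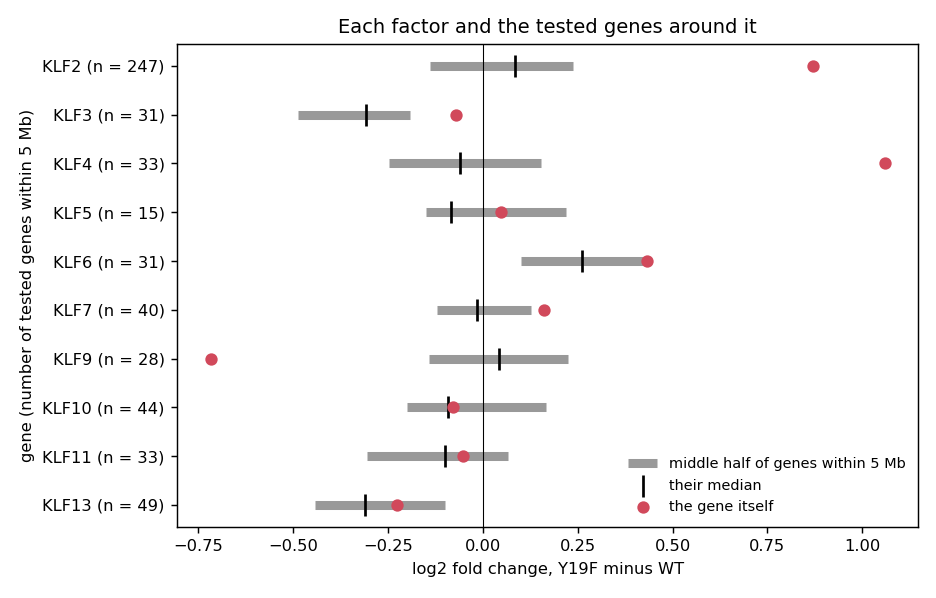
Log2 fold change in Y19F minus WT cells (x axis) of each factor (red point) beside the median (black line) and the interquartile range (grey bar) of the other tested genes within 5 Mb, whose number is given on the y axis. KLF2 and KLF4 lie far to the right of their bars, whereas KLF6 and KLF13 lie near theirs.

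The rest of the family was measured by the same fit. Of 17 further KLF and SP genes, 10 were tested. With the inhibitor none was called by edgeR, where 4.55% of all tested genes were, and 0 had an unadjusted p under 0.05. Tyr19Phe CDK9 cells had 1 higher and 3 lower, where 7.61% and 10.4% of all tested genes were. KLF16, a SIN3-binding relative of KLF13, rose from 53.3, 56.5 and 47.0 CPM in WT CDK9 libraries to 63.2, 68.4 and 56.1 CPM, groups that overlapped narrowly (0.26 on the log2 scale, SE 0.090, adjusted p = 0.0413). KLF14, an intronless relative of KLF16, fell from 5.54, 3.43 and 3.80 CPM to 2.68, 1.39 and 0.981 CPM (-1.33 on the log2 scale, SE 0.32, adjusted p = 0.00303). SP3, which competes with SP1 for GC boxes, fell from 181.5, 173.5 and 188.7 CPM to 149.8, 143.9 and 159.4 CPM (-0.26 on the log2 scale, SE 0.049, adjusted p = 1.70e-04), and SP6 fell by 1.17 (SE 0.31, adjusted p = 0.00692). SP1 stood at -0.0074 under the inhibitor and -0.060 in Tyr19Phe CDK9 cells, neither called (SE 0.053 each).

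The kinase ERK5, its upstream kinases and the MEF2 factors induce KLF2 and KLF4 in other cells. With the inhibitor none of 7 tested genes was called by edgeR, where 4.55% of all tested genes were, and 1 had an unadjusted p under 0.05. With Tyr19Phe CDK9 3 of the 7 were called, where 18.0% of all tested genes were. MEF2A fell by 0.54 on the log2 scale (SE 0.064, adjusted p = 1.14e-07), MAP3K2 fell by 0.15 (SE 0.051, adjusted p = 0.0438) and MAP3K3 rose by 0.23 (SE 0.079, adjusted p = 0.0431). ERK5 itself, encoded by MAPK7, stood at 0.21 there, which was not called (adjusted p = 0.267), although it was higher than in inhibitor-treated cells (0.37, SE 0.12, adjusted p = 0.0302). The median of the 7 was 0.085 under the inhibitor and -0.022 in Tyr19Phe CDK9 cells.

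Among 11 corepressors and coactivators of these factors, none was called with the inhibitor by edgeR, where 4.55% of all tested genes were. Of the 11, 2 had an unadjusted p under 0.05. Tyr19Phe CDK9 cells had 4 lower and 1 higher, where 10.4% and 7.61% of all tested genes were, with a median of -0.088 over the 11. CTBP2, a CtBP corepressor that KLF3 recruits, fell by 0.29 (SE 0.059, adjusted p = 5.32e-04), and the acetyltransferase CREBBP fell by 0.23 (SE 0.049, adjusted p = 7.99e-04). The SIN3 scaffolds parted, with SIN3A at -0.16 (adjusted p = 0.0387) and SIN3B at 0.21 (adjusted p = 0.0294), and the deacetylase HDAC2 was at -0.15 (adjusted p = 0.0191). Of 11 ubiquitin ligases reported to act on KLF proteins, NEDD4L was lower after inhibitor treatment (-0.28 on the log2 scale, adjusted p = 0.00586) and FBXW7, which targets KLF5, was lower in Tyr19Phe CDK9 cells (-0.42, adjusted p = 0.00882). The others were not called against WT CDK9 cells, so each comparison called 1 of 11 ligases. Of all tested genes, 4.55% were called with the inhibitor and 18.0% in Tyr19Phe CDK9 cells. The medians of the list were -0.081 and -0.029.

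Genes reported elsewhere as targets of the family were called in both directions. Of 24 tested among 29, 5 were higher and 3 lower with the inhibitor, where 1.82% and 2.73% of all genes were, and 5 were higher and 4 lower in Tyr19Phe CDK9 cells, where 7.61% and 10.4% of all genes were, with medians of 0.062 and -0.022. THBD, the anticoagulant receptor thrombomodulin that KLF2 induces in endothelium, rose by 1.24 on the log2 scale with the inhibitor (SE 0.12, adjusted p = 7.60e-09). It rose by 0.48 in Tyr19Phe CDK9 cells (SE 0.12, adjusted p = 0.00472) and was lower in Tyr19Phe CDK9 than in inhibitor-treated cells by the direct comparison (-0.76, adjusted p = 7.28e-06). S1PR1, a sphingosine receptor that KLF2 induces in T cells, fell by 0.87 after inhibitor treatment (SE 0.082, adjusted p = 3.36e-09), and its value in Tyr19Phe CDK9 cells was 0.17 (adjusted p = 0.131). PDGFB, a growth factor of mesenchymal cells, was at -0.85 with the inhibitor (adjusted p = 5.45e-08) and 0.77 with Tyr19Phe CDK9 (adjusted p = 3.70e-08). TXNIP, an inhibitor of thioredoxin, had the opposite signs, with 0.38 (adjusted p = 1.80e-06) and -0.31 (adjusted p = 1.66e-05). ODC1, the first enzyme of polyamine synthesis, fell by 0.30 with the inhibitor (adjusted p = 6.79e-04).

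Among the other targets PLAU, the urokinase gene that KLF6 activates, rose by 0.38 in Tyr19Phe CDK9 cells (SE 0.042, adjusted p = 2.91e-08) and by 0.17 under the inhibitor (adjusted p = 0.0144). CCND1, encoding cyclin D1, rose by 0.32 with Tyr19Phe CDK9 (SE 0.038, adjusted p = 1.32e-07), and KRT19, an epithelial keratin that also stands in the marker list, fell by 1.24 (SE 0.056, adjusted p = 3.86e-17), whereas it rose by 0.21 under the inhibitor (SE 0.055, adjusted p = 0.0167). CDKN1A, the p21 gene that KLF4 and KLF6 activate, was at 0.43 after inhibitor treatment (adjusted p = 0.428) and 0.53 in Tyr19Phe CDK9 cells (adjusted p = 0.132), neither called, at group means of 3.52 to 5.10 CPM. In a list of the glucocorticoid receptor gene NR3C1 and its targets, chosen for KLF9, 2 of 8 tested genes were called in Tyr19Phe CDK9 cells, where 18.0% of all tested genes were. These were SGK1 at 0.59 (adjusted p = 1.73e-06) and DUSP1 at 0.32 (adjusted p = 0.00198), both higher. None of the 8 was called with the inhibitor by edgeR, where 4.55% of all tested genes were, with 3 at an unadjusted p under 0.05. For both comparisons the receptor gene was at -0.025 and -0.0745.

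The direct comparison of Tyr19Phe CDK9 with inhibitor-treated cells was read for the same lists, and 20.7% of all tested genes were called in it. It called 5 targets higher and 6 lower, and by smallest adjusted p these were led by KRT19 (-1.45, SE 0.056, adjusted p = 7.81e-19), PDGFB (1.62, SE 0.090, adjusted p = 3.29e-15), TXNIP (-0.69, SE 0.049, adjusted p = 1.37e-12), S1PR1 (1.04, SE 0.081, adjusted p = 1.30e-11) and CCND1 (0.42, SE 0.038, adjusted p = 3.55e-10). Of the ligases 2 were higher, NEDD4L at 0.29 and SMURF2 at 0.22 (adjusted p = 0.00104 and 0.0103), and 2 were lower, ITCH at -0.20 and FBXW7 at -0.34 (adjusted p = 0.00984 and 0.0376). Of the glucocorticoid receptor targets SGK1, DUSP1, CEBPD and FKBP5 were higher, by 0.80, 0.35, 0.43 and 0.31. MEF2A was lower, at -0.62 (adjusted p = 5.09e-09), as was MAP3K2, at -0.22 (adjusted p = 0.00188). SIN3B was higher by 0.24 (adjusted p = 0.00906), while CTBP2 at -0.17 (adjusted p = 0.0334) and CREBBP at -0.14 (adjusted p = 0.0457) were lower.

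Few reads were assigned to genes that overlap the members. Reads that run into a member from genes beside it were not examined. The only overlapping gene with more than 0.5% of a member's counts was the antisense transcript KLF3-AS1, with 4 to 18 counts per library, 0.838% of those of KLF3, and since the strand setting of the counting is not stated, reads of this pair cannot be told apart. Of 10 listed KLF pseudogenes, 1 had a count, of at most 4 in a library.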

How the data were processed

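RNA of SKOV3 cells was sequenced in 9 libraries, 3 per group, grouped by the deposited labels. The authors mapped reads to hg38 (GRCh38) and deposited raw counts of reads per gene, without normalization. The submitters' processing notes name HISAT2 2.0.5 and featureCounts 1.5.0-p3. The annotation release and strandedness are not given in the sources used here. The deposited table also lists each gene's position and length.

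Counts were tested in R 4.3.3 with edgeR 4.0.16, with DESeq2 1.42.0 as an alternative. Genes passed filterByExpr with a minimum count of 10 and a total of 15, libraries were scaled by TMM, and edgeR's quasi-likelihood test used the group means over the 9 libraries, adjusted by Benjamini-Hochberg. A 95% interval is the log2 fold change with its standard error times the t quantile, not adjusted for multiple tests. No permutation test was run, since the smallest exact two-sided p with 3 libraries a side is 0.1. The floor of 3 counts covers counting error only. Same-numbered libraries did not deviate together (correlations of -0.0116 to 0.026), so they were not paired. The code was tested on simulated counts.

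The 10 members and all lists were chosen with earlier results of these data known. The genes named are the members, the called KLF and SP relatives, and up to 5 called genes per list and comparison, to which SP1, CDKN1A, CCL5 and NR3C1 were added after their values were seen. Searches for MEF2 sites and CArG boxes were also added then. Alternatives were other scalings, DESeq2, other filters, testing protein-coding genes alone, an adjusted p under 0.01, a replicate block, fitting the compared groups alone, and each library left out in turn. The planned comparison of protein sequences was not run.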

Additional observations from a re-analysis of the deposited data

Results flagged for a closer look

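For 7 genes, levels in Tyr19Phe CDK9 cells differed from those with the inhibitor in the direct comparison of these groups by edgeR. KLF4 differed by 0.58 on the log2 scale (adjusted p = 0.00445), KLF6 by 0.36 (adjusted p = 3.54e-07) and KLF16 by 0.45 (adjusted p = 4.19e-04), each higher in Tyr19Phe CDK9 cells. KLF14 differed by -1.51 (adjusted p = 6.86e-04), SP6 by -1.32 (adjusted p = 0.00202), SP4 by -0.46 (adjusted p = 0.0220) and SP3 by -0.22 (adjusted p = 0.00104), each lower in Tyr19Phe CDK9 cells. All genes were tested in this way, and 20.7% of them were called. Groups of 3 libraries are too small to test for a single outlying library.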

How the results depend on the processing

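Over 600 values of single members under 20 alternatives, 576 kept the direction and the call, 15 lost the call, 1 gained it and 8 changed sign, all 8 in comparisons that were not called. The alternative of an adjusted p under 0.01 reused the main fit, so its directions could not change. The number of members called in Tyr19Phe CDK9 cells was 5 and stayed between 3 and 5 when 1 library was left out, with 3 without WT replicate 3. With the inhibitor it was 1 and between 0 and 1, with 0 at an adjusted p under 0.01. Leaving out both inhibitor replicate 2 and Tyr19Phe replicate 3, added after the data were seen, also gave 0 with the inhibitor, 4 with Tyr19Phe CDK9 and 2 in the direct comparison. The direct comparison had 2 called members, and 2 to 3 when 1 library was left out. Without a filter on low counts KLF7 in Tyr19Phe CDK9 cells had an adjusted p of 0.0501. With the replicate block the counts of called members were 1, 5 and 2, and no call changed. Signs changed when 1 library was left out for KLF5 under the inhibitor (-0.0915 to 0.0255, positive without WT replicate 3), for KLF11 under the inhibitor (-0.0273 to 0.0616, with -0.0105 without WT replicate 2 and -0.0176 without inhibitor replicate 3) and for KLF9 in the direct comparison (-0.416 to 0.350, positive without inhibitor replicate 3). Without both doubted libraries they changed for KLF11 under the inhibitor (-0.0276) and, in the direct comparison, for KLF7 (-0.0060) and KLF11 (0.0158). The cause was not tested. KLF9, at 12 to 38 counts, had the fewest counts of the members, and the part of depth in its wide intervals was not tested.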

Other observations

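For KLF2 and KLF4, the members called with a log2 fold change of at least 0.5 against WT CDK9 cells, the other genes with the most similar pattern were found by the root mean square distance of log2 CPM, centred per gene, over 9 libraries and 11124 genes of at least 5 CPM. Nearest to KLF4 were MMP2, a matrix metalloprotease, at 0.151, ADGRE5, an adhesion receptor, at 0.158 and PSMB9, an immunoproteasome subunit, at 0.162. Their log2 differences from WT CDK9 cells were 0.41, 0.17 and 0.32 under the inhibitor, and 0.97, 0.89 and 1.13 in Tyr19Phe CDK9 cells. Nearest to KLF2 were WASH2P at 0.136, AGTRAP, which binds the angiotensin receptor, at 0.186 and LURAP1L at 0.192. WASH2P belongs to a family of near-identical copies, so its reads may be split among them. KLF2 and KLF4 were 0.282 apart. These genes were chosen by the likeness of their values, so the distances are a description.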
